A study of Mus musculus with 10 samples.

Results

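The MHC class II presentation genes are 10 genes that encode the chains of class II molecules, the proteins that load them with peptide and the regulator that switches them on. They were taken from the table of estimated counts by gene symbol, and each of the 10 was found on 1 row of its own among 26378 named genes. The 10 samples were pieces of subcutaneous tumors grown from WEHI-164, a mouse fibrosarcoma cell line with a WT genotype, in female BALB/c mice whose age the labels do not give. Each piece was removed at surgery while the tumor was untreated, after which a hydrogel that releases poly(I:C), a synthetic double-stranded RNA sensed by innate immune receptors, was placed on the tumor that remained. Mice were then sorted by outcome into 5 responders (RS, complete regression; tumors 5, 9, 10, 11 and 12) and 5 non-responders (NR, no delay in growth; tumors 1, 2, 3, 6 and 7). Responders mostly have the higher tumor numbers, and if these follow the order of collection, which the sources used here do not say, order and response cannot be told apart. The comparison therefore asks how the untreated tumors of later responders and non-responders differed. The response was scored on the part of the tumor that was left behind, and the RNA came from the part that was removed. The estimated counts summed to between 16002949 and 31160790 in the responder tumors, and to between 19863863 and 28276142 in the non-responder tumors.

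Class II molecules display peptides from endosomal proteins to CD4 T cells. The alpha and beta chains assemble with the invariant chain (Cd74), which blocks the peptide groove and is cut down stepwise in endosomes, with the last steps made by the protease cathepsin S (Ctss). H2-DM, a dimer of H2-DMa with H2-DMb1 or H2-DMb2, then exchanges the remnant of the invariant chain for peptide, and H2-O, of which H2-Oa is the alpha chain, restrains H2-DM. Dendritic cells, macrophages and B cells make these proteins constitutively or on activation, and many other cells do so after interferon gamma, through the coactivator Ciita. BALB/c mice carry the H2d haplotype, which includes a functional H2-Ea gene, whereas the reference genome is that of an H2b strain in which H2-Ea is annotated as a polymorphic pseudogene.

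Class II promoters carry a conserved module with an X box, bound by the RFX complex, and a Y box, bound by NF-Y, and Ciita acts on the factors assembled there without binding DNA itself. Promoters of 7 of the 10 genes (H2-Aa, H2-Eb1, H2-DMa, H2-DMb1, H2-DMb2, H2-Oa and Ctss) were matched in a RefSeq table on GRCm38.p6, which holds 250 bases before and 50 bases after each gene's start. The windows of 60 bases below are printed 5′ to 3′ on the gene's strand to show the members whose promoters hold the core of the Y box, ATTGG, within 100 bases of the start. ATTGG and, where it occurs upstream of it, GCAAC, a core of the X box, are in capitals.
H2-Aa: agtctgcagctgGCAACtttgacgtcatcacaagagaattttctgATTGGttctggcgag
H2-Eb1: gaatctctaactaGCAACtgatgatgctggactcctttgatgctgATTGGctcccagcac
H2-Oa: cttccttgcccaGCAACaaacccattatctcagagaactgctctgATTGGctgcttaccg
H2-DMb1: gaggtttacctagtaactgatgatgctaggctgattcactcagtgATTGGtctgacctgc
H2-DMb2: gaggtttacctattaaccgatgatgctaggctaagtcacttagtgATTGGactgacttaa
The windows lie at chr17:34287857-34287916 (minus strand) for H2-Aa, and on the plus strand at chr17:34305763-34305822 for H2-Eb1, chr17:34092291-34092350 for H2-Oa, chr17:34153085-34153144 for H2-DMb1 and chr17:34145114-34145173 for H2-DMb2. ATTGG began 48 bases before the start of H2-Aa, 59 before H2-Eb1, 43 before H2-Oa, 61 before H2-DMb1 and 90 before H2-DMb2. In H2-Aa, H2-Eb1 and H2-Oa the start of GCAAC lay 33, 32 and 33 bases upstream of that of ATTGG. On either strand, ATTGG occurred in 37.4% and GCAAC in 35.2% of 32851 promoters of the same length. The pair in this order on the same strand, with starts 30 to 40 bases apart, occurred in 0.478% of them. The windows of H2-DMb1 and H2-DMb2 were identical at 51 of 60 positions, and neither holds GCAAC. Of the 2 annotated starts of H2-DMa, 1 had ATTGG 198 bases upstream, and the Ctss promoter held neither motif. A match is a description of these letters, not a binding site.

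The members sit in 4 places in the genome (GRCm38, GENCODE). The 7 H2 genes lie in the MHC on chromosome 17, in the order H2-Oa (chr17:34092340-34095234), H2-DMa (chr17:34119541-34139101), H2-DMb2 (chr17:34143307-34151555), H2-DMb1 (chr17:34153072-34160230), H2-Ab1 (chr17:34257689-34269419), H2-Aa (chr17:34282744-34287823) and H2-Eb1 (chr17:34305867-34316674). Ctss is at chr3:95526786-95556403, Ciita at chr16:10480059-10528418 and Cd74 at chr18:60803848-60812652. All are protein-coding, and all but H2-Aa are on the plus strand. Sequence shared with other genes limits what the counts of some members can tell. Of the 31-base words of the longest H2-DMb1 transcript, 37.6% also occur in H2-DMb2, and of those of H2-DMb2, 34.4% occur in H2-DMb1, so the split of reads between these paralogs is uncertain. For H2-Oa, 19.8% of the words also occur in BC051537, an antisense gene on the opposite strand, and whether the counting used strand is not given in the sources used here, so that reads of this pair may not be separable. For each of the other members, at most 1.84% of the words were shared. H2-Eb1, H2-DMa and Ciita also have annotated genes on the opposite strand (Gm20513, Brd2 and Dexi among them). Whether the BALB/c alleles lost counts against this reference was not tested.

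Levels per length spanned 3 orders of magnitude. In CPM (counts scaled to the same library total, with edgeR's TMM factors) per kb of the longest annotated transcript, Cd74 was highest at 377 ± 101 (SD, n = 10 tumors), followed by Ctss at 366 ± 91.0. The chains of the classical molecules came next, with H2-Ab1 at 177 ± 51.7, H2-Eb1 at 116 ± 34.3 and H2-Aa at 79.2 ± 22.6 CPM per kb. The peptide loading chains were lower, with H2-DMa at 22.02 ± 3.86, H2-DMb2 at 13.9 ± 2.34 and H2-DMb1 at 12.1 ± 2.73 CPM per kb. Ciita stood at 3.35 ± 0.736 and H2-Oa at 0.296 ± 0.128 CPM per kb. Ranges over tumors overlapped between neighbours in this order except between H2-Aa and H2-DMa, H2-DMb1 and Ciita, and Ciita and H2-Oa. Compared within tumors, each gene was above the next in all 10, with 2 exceptions. H2-DMb2 was above H2-DMb1 in 9 of the 10 tumors. Cd74 was above Ctss in 5 of the 10, so Cd74 and Ctss are not ordered by the data. The place of H2-Aa depends on its length: its longest transcript is 3223 bases against a mean of 977 over its coding transcripts, and with the mean length H2-Aa moved to 3rd place at 261 ± 74.6 CPM per kb. H2-Ea, the partner chain of H2-Eb1, was measured at 160 ± 41.6 CPM per kb, and H2-Ob, the partner of H2-Oa, at 0.252 ± 0.0718.

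**Figure D1:**
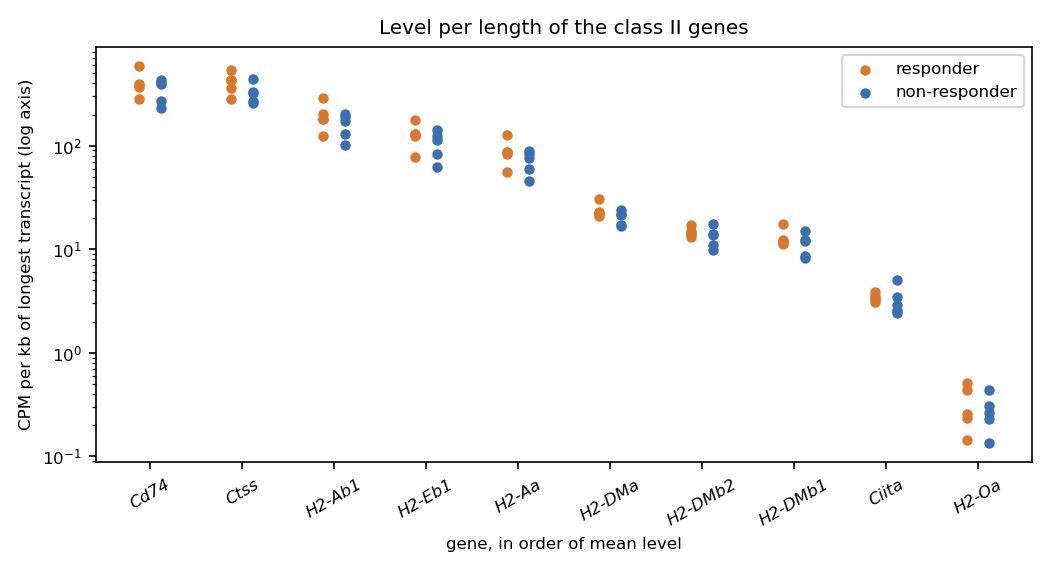
CPM per kb of the longest transcript (log axis) for each class II gene in each tumor, in order of mean level, with responders in orange and non-responders in blue (n = 5 each). Cd74 and Ctss overlap at the top (377 and 366 CPM per kb on average), and H2-Oa lies lowest (0.296).

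None of the 10 genes passed the test between responders and non-responders, and for each of them the values of the groups overlapped. All 10 nevertheless had a log2 fold change above 0, that is, higher in responders, from 0.07 for Ciita to 0.33 for Ctss with a median of 0.23, beside a share of 48.6% above 0 and a median of -0.0036 over all 15767 features tested. After Benjamini-Hochberg adjustment over all features, the p of the members from the quasi-likelihood test of edgeR ran from 0.619 to 0.935, and 0 of 15767 features (0.00%) were called. At an unadjusted p under 0.05, 0 of the 10 members passed, beside 8.21% of all features in either direction and 4.20% with higher values in responders. Groups that did not overlap were found for 0.336% of features with responders higher and for 0 of the 10 members. The 95% interval of the log2 fold change included 0 for each of the 10. The members vary together, so the 10 directions are not 10 separate observations. In whole tumor pieces, fewer cells of a type and less RNA per cell cannot be told apart.

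The 3 classical chains ranked the extreme tumors alike, with responder 11 on top, non-responder 2 at the bottom and responder 5 next to it. H2-Aa, the alpha chain of I-A, measured 178, 280, 282, 408 and 270 CPM in responders 5, 9, 10, 11 and 12, and 284, 147, 267, 245 and 191 CPM in non-responders 1, 2, 3, 6 and 7. Responder 11 stood above every other tumor, while responder 5 was lower than all non-responders but tumor 2. The means were 284 ± 81.9 and 227 ± 56.7 CPM (SD, n = 5), a log2 fold change of 0.32 ± 0.20 (SE; 95% interval -0.12 to 0.77; edgeR adjusted p = 0.701).

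H2-Ab1, the beta chain of I-A, measured 152, 218, 246, 347 and 220 CPM in the responders, against 245, 123, 229, 212 and 156 CPM in the non-responders, in the same order of tumors. The tumors fell in a similar order, with responder 11 highest, non-responder 2 lowest and responder 5 next to lowest. Its log2 fold change was 0.30 ± 0.21 (95% interval -0.16 to 0.75; adjusted p = 0.730). H2-Eb1, the beta chain of I-E, measured 131, 216, 218, 298 and 206 CPM in the responders, against 235, 103, 205, 189 and 138 CPM in the non-responders. Here too the groups overlapped, with responder 5 below 4 of the 5 non-responders. The log2 fold change of H2-Eb1 was 0.30 ± 0.22 (95% interval -0.18 to 0.78; adjusted p = 0.745).

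Cd74, the invariant chain, had the highest mean count of the members. It measured 400, 543, 559, 832 and 524 CPM in the responders, against 609, 327, 580, 559 and 381 CPM in the non-responders. Without responder 11, the highest tumor would be non-responder 1. The means were 571 ± 158 and 491 ± 128 CPM, with a log2 fold change of 0.22 ± 0.20 (95% interval -0.21 to 0.65; adjusted p = 0.791). Ctss, the protease that removes the invariant chain, measured 380, 587, 578, 732 and 490 CPM in the responders, against 592, 350, 439, 450 and 366 CPM in the non-responders. Non-responder 1 was 2nd highest of all tumors and responder 5 was 8th. Ctss had the largest log2 fold change of the 10, 0.33 ± 0.17 (95% interval -0.03 to 0.69; unadjusted p = 0.0669 and adjusted p = 0.623 by edgeR).

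For the chains of H2-DM, the peptide exchange factor, responder 5 ranked 4th (H2-DMa), 5th (H2-DMb2) and 8th (H2-DMb1) of the 10 tumors. H2-DMa measured 44.7, 46.2, 42.1, 61.5 and 44.4 CPM in the responders, against 43.1, 34.0, 47.9, 43.9 and 33.6 CPM in the non-responders. Apart from responder 11, the responders lay within 42.1 to 46.2 CPM, and 3 non-responders lay in or just above that range. Its log2 fold change was 0.24 ± 0.12 (95% interval -0.016 to 0.50), with the smallest unadjusted p of the 10 genes, 0.0634 (edgeR; adjusted p = 0.619). H2-DMb1 measured 15.6, 17.1, 16.5, 24.7 and 17.0 CPM in the responders, against 17.1, 11.6, 21.3, 17.0 and 12.1 CPM in the non-responders. H2-DMb2, its close paralog, measured 20.8, 22.2, 19.5, 25.2 and 21.1 CPM in the responders, against 20.3, 14.7, 26.0, 20.7 and 16.2 CPM in the non-responders. For both beta chains, non-responders 2 and 7 were the lowest tumors and the other 3 non-responders lay among the responders or above them. The log2 fold changes were 0.21 ± 0.17 for H2-DMb1 (95% interval -0.16 to 0.58; adjusted p = 0.759) and 0.16 ± 0.13 for H2-DMb2 (95% interval -0.13 to 0.45; adjusted p = 0.770).

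H2-Oa, the alpha chain of the H2-DM inhibitor, rested on 5 to 18 counts per tumor. It measured 0.194, 0.313, 0.691, 0.586 and 0.345 CPM in the responders, against 0.308, 0.179, 0.352, 0.406 and 0.587 CPM in the non-responders. At this depth the tumors could not be ranked with any precision, and the 95% interval of its log2 fold change of 0.23 ± 0.39 ran from -0.63 to 1.08 (adjusted p = 0.906).

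Ciita, the coactivator, had the smallest difference of the 10. It measured 20.5, 21.1, 19.5, 23.3 and 18.5 CPM in the responders, against 20.5, 14.6, 30.3, 15.7 and 17.3 CPM in the non-responders. The responders spanned a narrow range inside that of the non-responders, in which tumor 3 was the highest and tumor 2 the lowest of all 10. The means were 20.6 ± 1.80 and 19.7 ± 6.34 CPM, with a log2 fold change of 0.07 ± 0.17 (95% interval -0.29 to 0.43; adjusted p = 0.935).

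**Figure D2:**
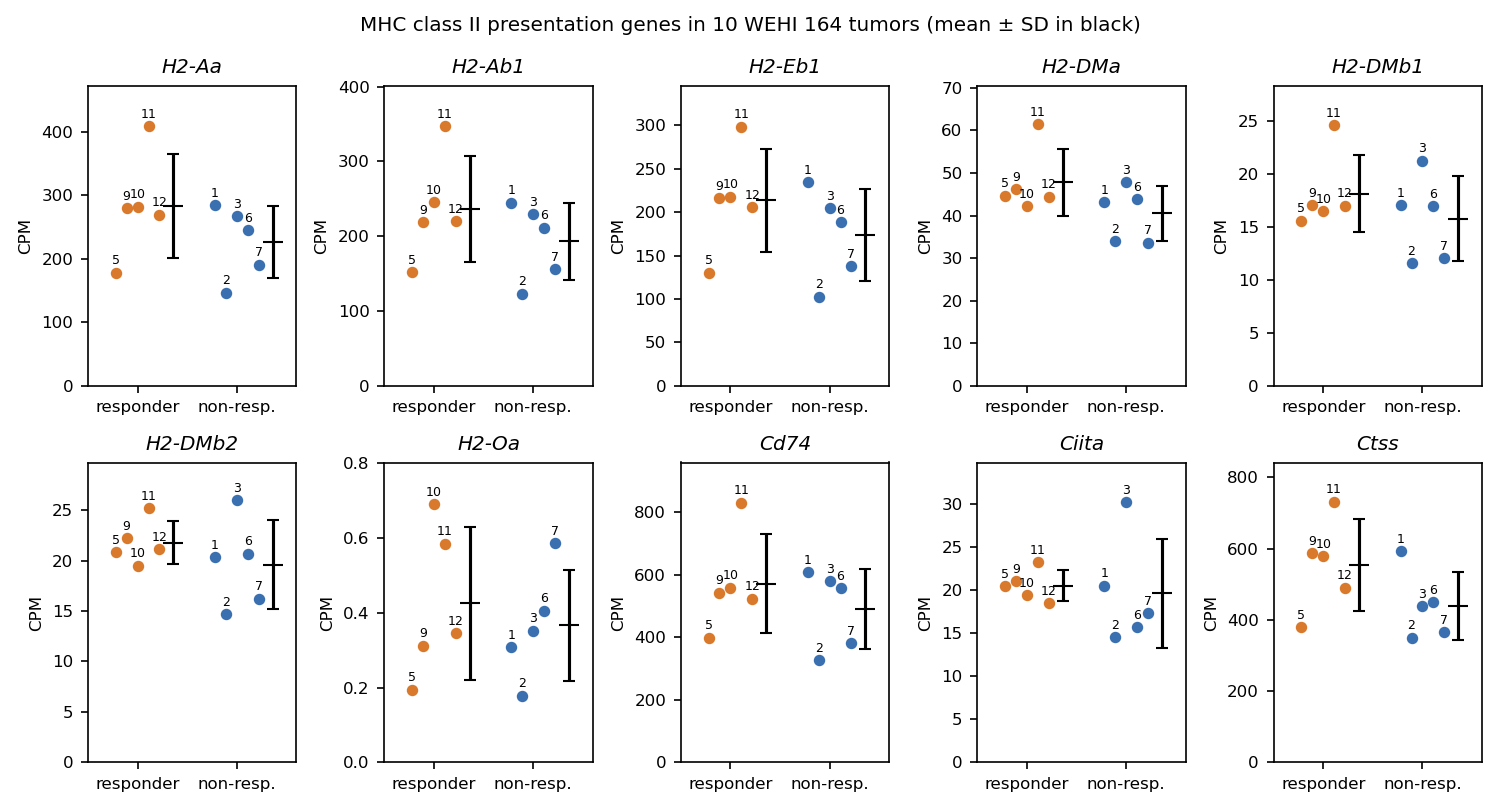
CPM of each class II gene in each tumor (points, with the tumor number beside them), with the mean and SD of each group (n = 5) in black. In H2-Aa and Cd74 responder 11 lies above all other tumors (408 and 832 CPM), and in Ciita the responders (18.5 to 23.3 CPM) fall inside the range of the non-responders (14.6 to 30.3 CPM).

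Single tumors carried much of the difference between the groups. Responder 11 was the highest tumor for 7 of the 10 genes, the exceptions being H2-DMb2 and Ciita (non-responder 3) and H2-Oa (responder 10), and non-responder 2 was the lowest for 9, the exception being H2-DMa (non-responder 7). Without responder 11 the median log2 fold change of the members was 0.11, without non-responder 2 it was 0.14 and without responder 5 it was 0.38. With any single tumor left out, 0 of the 10 genes were called by edgeR (adjusted p under 0.05). The log2 fold change of Ciita turned to -0.02 without non-responder 2, and the other 9 members kept a value above 0 in each of these fits.

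Within a tumor, the chains kept to each other more closely than their levels did. The ratio of H2-Aa to H2-Ab1 ran only from 1.15 to 1.28 over the 10 tumors (coefficient of variation 3.53%), although H2-Ab1 alone varied 2.81-fold with a coefficient of variation of 29.2%. H2-Eb1 to H2-Ab1 varied by 5.34%, H2-Ea to H2-Eb1 by 5.28% and H2-Ab1 to Cd74 by 5.03%, the last from 0.377 to 0.44. The H2-DM chains also kept to one another, with a coefficient of variation of 7.55% for H2-DMa to H2-DMb1 and 7.56% for H2-DMb2 to H2-DMb1. The last is limited by the sequence these paralogs share, which leaves the split of reads between them uncertain. Between these sets the ratios were looser, with 15.4% for H2-DMa to Cd74 and 11.3% for Ctss to Cd74. Among these ratios, those of Ciita varied most, by 24.8% to H2-Ab1 and by 22.4% to Cd74, the latter from 0.028 in responder 11 to 0.0522 in non-responder 3. No ratio was taken with H2-Oa, which had few counts. These are ratios of CPM, not per length, and they describe relative variation only.

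Ciita encodes the coactivator of the other genes, and its level was compared with each of the 9 other members over the 10 tumors on log2(CPM + 1). Ciita correlated with H2-DMb2 at a Pearson r of 0.831 (permutation p = 0.00363, adjusted over 9 relations p = 0.0327) and a Spearman rho of 0.806 (permutation p = 0.00745, adjusted p = 0.0265). On deviations from the group means r was 0.833 (permutation p = 0.00373). Without non-responders 2 and 3, which are farthest from the median of Ciita, r was 0.636 over 8 tumors (exact permutation p = 0.0847), and the call was lost. The r with H2-DMb1 was 0.755 (permutation p = 0.0133, adjusted p = 0.0598; rho 0.83, permutation p = 0.00511, adjusted p = 0.0265), and with H2-DMa it was 0.656 (permutation p = 0.0462, adjusted p = 0.117; rho 0.794, permutation p = 0.00884, adjusted p = 0.0265). For H2-Aa, H2-Ab1, H2-Eb1 and Cd74 the Pearson r lay between 0.561 and 0.574 (permutation adjusted p = 0.117 for each) and rho between 0.612 and 0.709 (permutation adjusted p from 0.0611 to 0.0856). Ctss had an r of 0.407 (permutation adjusted p = 0.274; rho 0.588) and H2-Oa an r of 0.122 (permutation adjusted p = 0.743; rho 0.0788). Thus 1 of the 9 Pearson relations had an adjusted p under 0.05. That count changed with single tumors. It was 0 without responder 5, 9, 10 or 11 or without non-responder 2 or 7, where H2-DMb2 kept an r of 0.763 to 0.842 with a permutation adjusted p from 0.0512 to 0.194. It was 2 without non-responder 6. Without non-responder 3, the tumor with the highest Ciita, 8 of the 9 passed, and H2-Ab1, for example, had an r of 0.702, in a range of 0.369 to 0.702 over the tumors left out.

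The interferon gamma route to Ciita was read from 8 genes. Each of the 8 had a log2 fold change above 0 (median 0.22), and 3 had an unadjusted p under 0.05 (edgeR), beside 4.20% of all features, though none passed after adjustment (adjusted p from 0.580 to 0.586). Ifng, the cytokine itself, measured 1.48, 3.06, 1.97, 3.94 and 2.30 CPM in responders, and in non-responders it measured 1.76, 0.715, 1.46, 2.03 and 1.14 CPM, a log2 fold change of 0.86 ± 0.30. Irf1, a transcription factor that acts on the Ciita gene, was at 374 ± 41.6 CPM in the responders, against 280 ± 72.3 CPM in the non-responders (0.41 ± 0.14). For both the groups overlapped. Jak1, a kinase of the receptor, had the smallest value, 0.02 ± 0.04. Over the 10 tumors, the r of Ciita with Irf1 was 0.708 (permutation p = 0.0194, adjusted over a family of 9 relations p = 0.0582; rho 0.745, adjusted p = 0.0536) and with Ifng 0.371 (permutation adjusted p = 0.29; rho 0.382, adjusted p = 0.359). Both depended on the setting. On deviations from the group means the r of Ciita with Irf1 was 0.799 (permutation adjusted p = 0.0279), and leaving out 1 tumor at a time it ran from 0.612 to 0.753. The r with Ifng ran from 0.0994 to 0.745 in the same way, the highest without non-responder 3 (permutation adjusted p = 0.0434).

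The factors that bind the promoter module were split in direction. Of 7 genes of RFX, NF-Y and Creb1, 4 had a log2 fold change above 0 (median 0.04). Rfx5, the large RFX subunit, was at 52.2 ± 4.76 CPM in responders and 46.2 ± 4.47 in non-responders (log2 fold change 0.18 ± 0.08; edgeR unadjusted p = 0.0382, adjusted p = 0.591). Rfxank, the ankyrin repeat subunit of the same complex, went the other way, with 9.66 ± 1.18 and 11.3 ± 0.326 CPM (-0.22 ± 0.09; unadjusted p = 0.0261, adjusted p = 0.586). The other class II chains were split as well. H2-Ea measured 120, 180, 179, 239 and 178 CPM in the responders, against 192, 87.4, 179, 175 and 126 CPM in the non-responders, the same order of extremes as H2-Eb1, with a log2 fold change of 0.24 ± 0.21 (adjusted p = 0.779). H2-Ob, at 0.423 to 1.02 CPM, had a log2 fold change of -0.38 ± 0.26 (adjusted p = 0.715), and H2-Eb2 was below the filter on low counts.

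Of 11 genes for endosomal processing and turnover, 10 had a log2 fold change above 0 (median 0.13) and 0 had an unadjusted p under 0.05. They ran from 0.23 ± 0.11 for Marchf1, the ubiquitin ligase that sends class II molecules to degradation, to -0.03 ± 0.05 for Marchf8, a related ligase. Of the receptor and costimulation genes, 7 of 8 passed the filter and 6 of these had a value above 0 (median 0.34). Cd80, a ligand of Cd28 on antigen-presenting cells, was at 5.63, 6.82, 7.20, 6.54 and 7.06 CPM in the responders, against 6.51, 5.18, 5.08, 3.88 and 3.56 CPM in the non-responders (log2 fold change 0.46 ± 0.15; edgeR unadjusted p = 0.0106, adjusted p = 0.580). Only non-responder 1 reached into the range of the responders. The largest value of this list was 0.61 ± 0.31 for Cd4, the coreceptor for class II molecules on T cells (adjusted p = 0.623), and the smallest -0.05 ± 0.11 for Icosl.

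**Figure D3:**
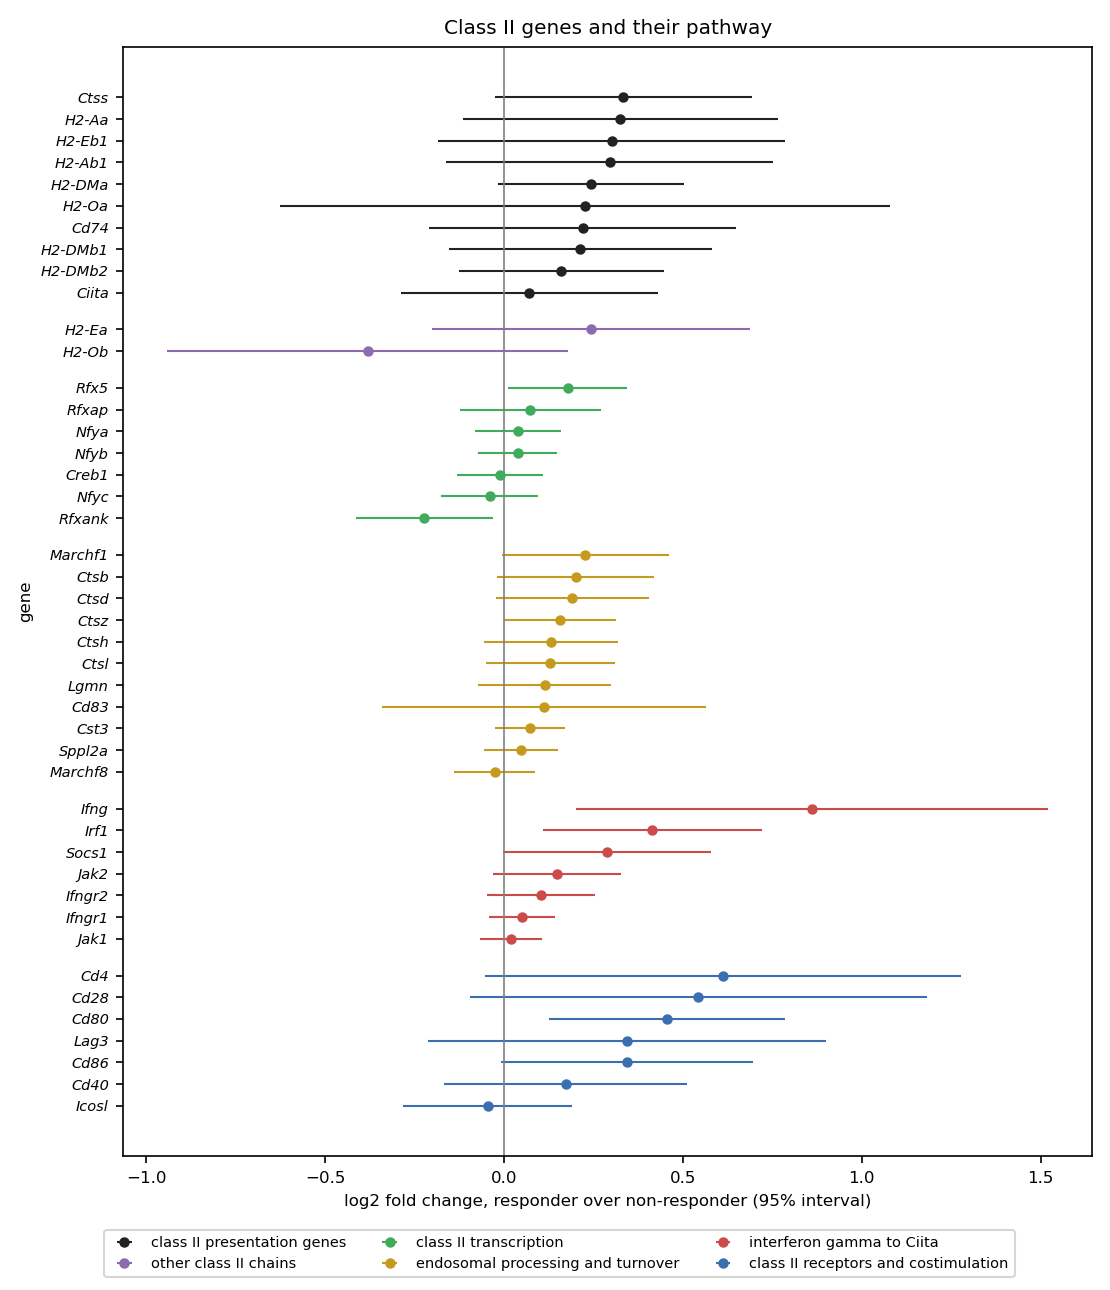
Log2 fold change of responders over non-responders with its 95% interval from edgeR for the class II presentation genes and the genes of their pathway, by list. The intervals of all 10 class II presentation genes include 0, and those of Ifng, Irf1, Cd80 and Rfx5 lie above 0 and that of Rfxank below it.

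Markers of cells that make class II molecules were read in the same libraries. All 10 macrophage markers passed the filter, 9 had a log2 fold change above 0 (median 0.14) and 0 had an unadjusted p under 0.05. Their summed level was 1440, 1709, 1740, 1977 and 1536 CPM in the responders, against 1814, 1342, 1558, 1457 and 1398 CPM in the non-responders, of which C1qa, the most abundant, held 21.9%. Responder 11 was the highest and non-responder 2 the lowest tumor, as for most of the class II genes. The 10 dendritic cell markers had a median log2 fold change of 0.02, with Batf3 higher (0.60; edgeR unadjusted p = 0.0228, adjusted p = 0.586) and Fscn1 lower in responders (-0.20; unadjusted p = 0.0184, adjusted p = 0.580). Their sum was 418 ± 27.6 CPM in responders and 477 ± 37.8 in non-responders, but 85.7% of it was Fscn1. B cell markers summed to 11.6 ± 3.19 and 9.48 ± 3.97 CPM, with 75.8% from Cd22, and 3 of the 8 were below the filter, among them Ms4a1 at 0.0767 to 0.352 CPM. Of the 5 that passed, 4 had a log2 fold change above 0 (median 0.36), and the lowest was Cd79a at -0.53. None of these had an unadjusted p under 0.05 (edgeR). Monocyte markers summed to 634 ± 46.4 and 658 ± 33.2 CPM, of which Vcan held 62.2%, but 4 of the 6 had a log2 fold change above 0 (median 0.11), with Ly6c2 at 0.48 (edgeR unadjusted p = 0.00323, adjusted p = 0.580) and Ccr2 at -0.23 (unadjusted p = 0.0487, adjusted p = 0.607). All 6 T cell markers had a log2 fold change above 0 (median 0.50) and none had an unadjusted p under 0.05. T cell markers summed to 23.9 ± 8.55 and 17.5 ± 4.45 CPM, lymph node stroma markers to 4.39 ± 1.29 and 3.25 ± 1.42 CPM and skin markers to 3.82 ± 0.598 and 3.86 ± 0.603 CPM, with Krt1 at 0 in every tumor. Markers of the tumor line and of fibroblasts summed to 8615 ± 462 and 8997 ± 689 CPM, led by Vim with 54.1%. All 8 of these passed the filter, which is what the fibrosarcoma label calls for. Of the 8, 2 had a log2 fold change above 0 (median -0.16), the highest being Thy1 at 0.34 (edgeR unadjusted p = 0.073, adjusted p = 0.630). Another 2, Col1a1 and Col3a1, were lower in responders at an unadjusted p of 0.00654 and 0.0159 (edgeR; adjusted p = 0.580 for both). Over all 15767 features, 631 were lower in responders at an unadjusted p under 0.05. The part of these cell types in the difference between the groups was not tested. A fit with the macrophage score is given with the correlations of Cd74. Its score is RNA from the same libraries and cannot separate cell number from RNA per cell.

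Cd74 followed the macrophage markers across the tumors. The r of Cd74 with the macrophage score, the mean log2(CPM + 1) of the markers, was 0.912 over 10 tumors (permutation p = 0.00025, adjusted p = 0.00225; rho 0.915, permutation p = 0.00054, adjusted p = 0.00486). Within the groups r was 0.906 (permutation p = 0.00036), and without responder 11 and non-responder 1, farthest from the median score, it was 0.856 over 8 tumors (exact permutation p = 0.00216). With the dendritic cell score the r of Cd74 was 0.52 (permutation adjusted p = 0.188; rho 0.576, adjusted p = 0.201) and with the B cell score 0.606 (permutation adjusted p = 0.113; rho 0.418, adjusted p = 0.35). H2-Oa, in textbook terms a gene of B cells and dendritic cells, had an r of 0.697 with the dendritic cell score (permutation adjusted p = 0.0595; rho 0.527, adjusted p = 0.22), 0.442 with the B cell score (permutation adjusted p = 0.255; rho 0.261) and 0.421 with the macrophage score (permutation adjusted p = 0.255; rho 0.321). These 6 relations and those of Ciita with interferon gamma genes form the family of 9, in which 2 had an adjusted p under 0.05, among them that of Cd74 with the macrophage score. When the macrophage score was added to the edgeR fit as a covariate, an alternative chosen after this correlation was seen, the median log2 fold change of the members was 0.0041 in place of 0.23. The members then ran from -0.07 for Cd74 to 0.10 for H2-DMa, 5 of the 10 below 0, and 0 were called. The change was not confined to the members. In this fit 4.90% of all features had an unadjusted p under 0.05 (edgeR), beside 8.21% without the score. Cd4 was at 0.21 in place of 0.61 and Ifng at 0.51 in place of 0.86, whereas Rfx5 was at 0.21 in place of 0.18.

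**Figure D4:**
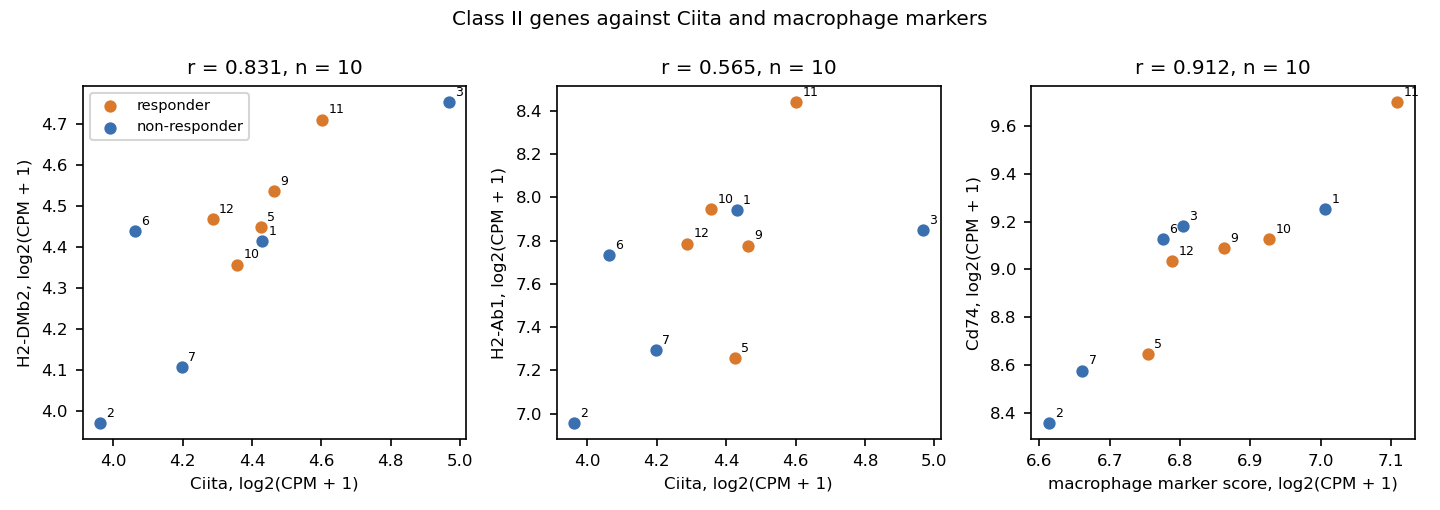
Log2(CPM + 1) of H2-DMb2 and of H2-Ab1 against Ciita, and of Cd74 against the macrophage marker score, 1 point per tumor with its number, responders in orange and non-responders in blue. Pearson r is 0.831, 0.565 and 0.912 (n = 10), and non-responder 2 is at the lower left of each panel.

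Beyond the members, the 8 named genes whose pattern over the 10 tumors was most like the mean standardized level of the members were H2-Ea, Socs1, Mefv, Cd40, Nr1h3, Pla1a, C1qb and Unc13d, chosen among 13057 named genes with a mean CPM of at least 1. Their r with that mean ran from 0.961 for H2-Ea to 0.940 for Unc13d, given as a description with no test. The members are themselves part of that mean, which raises their r, so theirs does not compare with that of the 8. Among the members r was 0.98 for H2-Ab1, 0.978 for Cd74, 0.976 for H2-Aa and 0.694 for Ciita. None was computed for H2-Oa, whose mean CPM is under 1. All points share the same 10 libraries. H2-Ea is a class II chain, C1qb a macrophage marker of the list above, Socs1 an inhibitor of interferon signaling and Cd40 a costimulatory receptor. None of the 8 was called between the groups, with log2 fold changes from 0.11 for Nr1h3 to 0.29 ± 0.13 for Socs1 (edgeR adjusted p = 0.611).

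**Figure D5:**
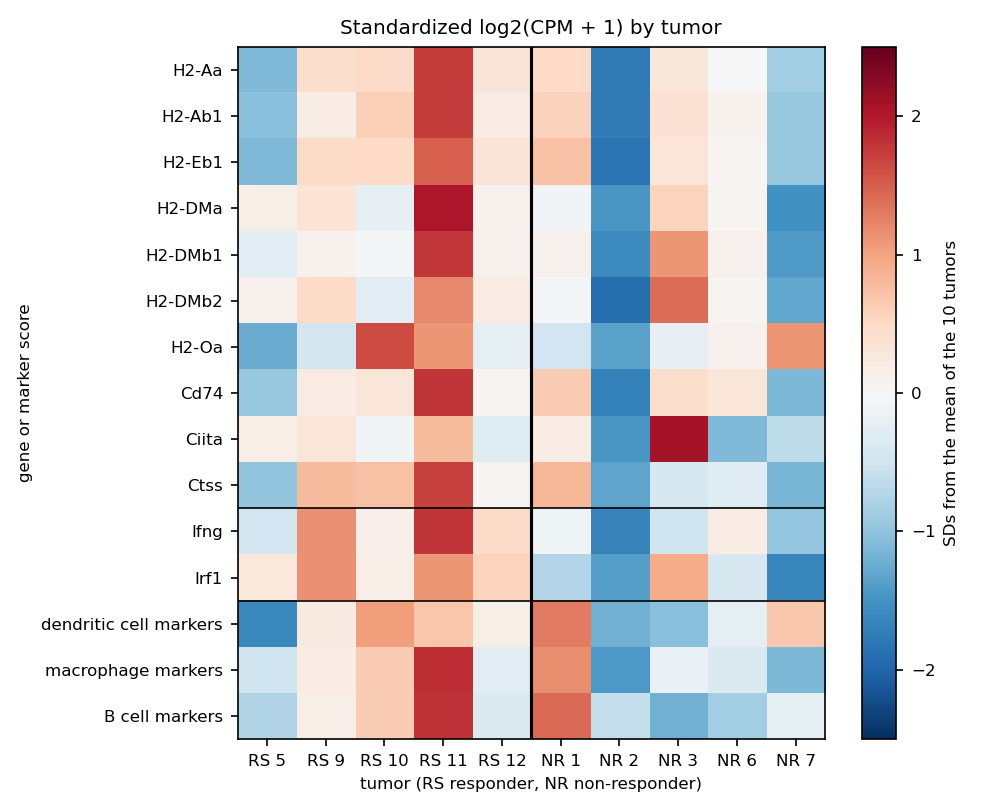
Standardized log2(CPM + 1), as SDs from the mean of the 10 tumors, of the class II genes, 2 interferon gamma genes and 3 marker scores in each tumor, with responders left and non-responders right of the black line. Responder 11 is red and non-responder 2 blue in most lines, and averaged over the 10 members they stand at 1.54 and -1.61.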

How the data were processed

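RNA from 10 WEHI 164 tumors was sequenced as 150 bp paired-end reads of polyA RNA. The authors estimated transcript abundance with Kallisto, summed it to genes with tximport on mm10 (GRCm38) and deposited estimated counts per gene, not normalized for depth or length. The annotation release is not given in the sources used here. Of 36009 rows, 9580 had no gene name (1.31% of counts). These were kept as features in the fit, rows of 1 name were summed, and counts were rounded.

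A feature entered the fit if at least 3 tumors had a CPM over 0.366, which kept 15767. The groups were compared by the quasi-likelihood test of edgeR 4.0.16 in R 4.3.3, with TMM factors and Benjamini-Hochberg adjustment over all features at a threshold of 0.05. DESeq2 1.42.0, limma 3.58.1 (voom), other scalings and filters, and leaving out each tumor were alternatives. Intervals are 95% intervals from the fold change and its standard error. Permutation p-values are two-sided, with 100000 resamples over 10 tumors and exact enumeration over 8. The common biological coefficient of variation, a single value over all features, was 10.4%, to which counting error is added where counts are few, as in H2-Oa. The members varied more. Over the 10 tumors of both groups, the coefficient of variation of their CPM ran from 16.8% (H2-DMb2) to 43.4% (H2-Oa), with 29.2% for H2-Ab1. Each sample is a separate mouse per the labels.

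Levels per length used GENCODE vM21 on GRCm38, and promoters came from RefSeq. The members, the pathway and marker lists, the named genes (all members, the extremes of each list, the genes with an unadjusted p under 0.05 and the 8 most similar genes) and the tests were chosen with earlier results of these data known. Of the listed genes, Ifi30 was not matched, and 2 are not reported here. On simulated data over 15565 genes, 194 of 200 changed genes and 6 unchanged genes were called, and the share called was 94% for 2-fold changes. No change under 2-fold was simulated. The largest fold of the members was 1.26 (Ctss), and the power at that size was not tested.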

Additional observations from a re-analysis of the deposited data

Results flagged for a closer look

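In 6 of 106 sets of 5 tumors, 1 tumor lay further from the others than Dixon's 95% criterion for 5 samples allows (0.71), where chance alone gives about 5.3. Responder 11 was high for H2-DMa, at 5.965 on the log2(CPM + 1) scale beside 5.431 to 5.561 in the other responders. It was also high for H2-DMb1, at 4.681 beside 4.055 to 4.176. Responder 5 was low for Cd28, the T cell costimulatory receptor, at 1.438 beside 2.167 to 2.404, and for the lymph node stroma marker score, at 0.7595 beside 1.173 to 1.314. Non-responder 1 was high for Ctsb, an endosomal protease, at 10.38 beside 9.999 to 10.08 in the other non-responders, and for Jak1, at 7.883 beside 7.753 to 7.788.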

How the results depend on the processing

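Under all alternatives, 0 of the members were called. Over all features, edgeR called 0 (1294 at an unadjusted p under 0.05), limma voom 0 (1331) and DESeq2 1 (1245), which was Col6a2, and with 1 tumor left out the count ran from 0 to 9, with 9 without responder 5. At an unadjusted p under 0.05, 4 members passed without responder 5 (Ctss, H2-Aa, H2-Ab1 and H2-Eb1; 13.6% of all features), 3 without non-responder 3 (Ciita, H2-DMa and H2-DMb2; 9.06%), 2 with no filter on low counts (Ctss and H2-DMa; 6.78%), and 1 each by DESeq2 (H2-DMa; 7.90%), without responder 10 (H2-DMa; 6.85%) and without non-responder 1 (Ctss; 9.78%). Leaving out 1 tumor at a time, the log2 fold change ran from -0.0224 to 0.276 for Ciita, from -0.0462 to 0.0337 for Creb1, from -0.0171 to 0.281 for Cd83, from -0.119 to 0.0311 for Icosl and from -0.0567 to 0.0106 for Marchf8. With the macrophage score as a covariate, chosen after seeing the data, values of the opposite sign were -0.0161 for H2-Ab1, -0.00316 for H2-Eb1, -0.0182 for H2-Oa, -0.0679 for Cd74, -0.0428 for Ciita, -0.0181 for H2-Ea, 0.0149 for Creb1, -0.00539 for Lgmn, 0.00721 for Marchf8, -0.00525 for Jak1 and -0.0211 for Cd40, and the cause was not tested. Of the 9 relations of Ciita with the other members, 2 passed on deviations from the group means and 0 to 8 with 1 tumor left out, where the r with H2-Oa ran from -0.157 to 0.259. Of the 9 relations with markers and interferon gamma genes, 3 passed on deviations from the group means (Irf1 with Ciita gained), 4 with a pseudocount of 0.25 CPM (Irf1 with Ciita and the dendritic cell score with H2-Oa gained) and 1 to 6 with 1 tumor left out, the 6 without non-responder 3. With the mean length of coding transcripts, 3 members changed place in the order by level per length. No paired analysis was possible because the tumor numbers of the groups do not overlap. With 5 tumors a group and H2-Oa at 5 to 18 counts, its fold change was not resolved at this depth.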
